A study of Mus musculus with 5 samples.

Results

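The cells described here are leukaemic cells of a mouse acute myeloid leukaemia (AML) that carry a strong mast cell programme. They were picked on measured values, cell by cell: a droplet barcode with at least 500 genes, at least 1000 unique molecular identifiers (UMIs, each standing for 1 captured RNA molecule) and at most 10% mitochondrial UMIs was taken when it held at least 15 UMIs per 10000 of Cpa3, at least 5 per 10000 of Cpa3, Ms4a2 and Fcer1a together, under 5 per 10000 of the basophil proteases Mcpt8 and Prss34, and under 5 per 10000 of the embryonic globins Hbb-y and Hba-x. Of 32240 barcodes that passed the quality limits, 5990 (18.6%) met this rule and are called Cpa3-high cells below. A further 15099 cells met every limit except that on Cpa3 and serve as the comparison, the Cpa3-low leukaemic cells. Because Cpa3, Ms4a2, Fcer1a and the 4 genes of the upper limits chose the cells, their values are given as a description and were left out of the tests between the classes.

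The series used GFP-labelled CMM cells, a model of AML with inv(16) according to its title, injected into the veins of C57BL/6 mice. Dosing began once about 1% of blood cells were GFP+ leukaemia cells, and mice received 3 intravenous injections, given every other day, of PBS or of CpG-STAT3dODN, in which a CpG sequence that the innate receptor TLR9 recognises is linked to a decoy for STAT3, a transcription factor. Cells positive for both GFP and the receptor c-Kit were sorted from spleen and sequenced as single cells (10x Genomics 3′ chemistry). There was 1 PBS library and there were 4 Decoy libraries, numbered 2, 3, 5 and 6. The labels do not say how many mice stand behind a library, which sex the mice or the leukaemia had, or whether CMM is 1 clone, and every library shares the same engrafted cells and gate.

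Mast cells arise from progenitors in which GATA2 and MITF act together, and they depend on the receptor Kit and on the interleukin 33 receptor subunit Il1rl1 (ST2). They carry the high-affinity IgE receptor, whose subunits are encoded by Fcer1a, Ms4a2 and Fcer1g, and store proteases such as carboxypeptidase A3 (Cpa3), chymases and tryptases with histamine and serotonin in secretory granules. Hdc makes histamine, Tph1 carries out the rate-limiting step of serotonin synthesis and Slc18a2 (VMAT2) loads both amines into granules. In normal spleen such cells are rare, whereas basophils, a related lineage, are marked by Mcpt8 and Prss34.

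The promoters of the rule genes Cpa3, Ms4a2 and Fcer1a are shown first, with that of Cd200r3, which the rule does not use. They are shown because each held a GATA-type motif. Each line is the 250 bases before a RefSeq transcription start (GRCm38.p6, the mm10 assembly), written 5′ to 3′ on the gene's strand, with matches to AGATAA on either strand in capitals (TTATCT where the match is on the other strand).

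Cpa3, chr3:20242182-20242431, minus strand: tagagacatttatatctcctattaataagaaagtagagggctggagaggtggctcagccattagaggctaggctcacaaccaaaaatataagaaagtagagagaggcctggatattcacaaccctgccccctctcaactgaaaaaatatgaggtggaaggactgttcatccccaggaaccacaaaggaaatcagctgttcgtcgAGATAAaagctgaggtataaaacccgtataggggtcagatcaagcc

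Ms4a2, chr19:11623720-11623969, minus strand: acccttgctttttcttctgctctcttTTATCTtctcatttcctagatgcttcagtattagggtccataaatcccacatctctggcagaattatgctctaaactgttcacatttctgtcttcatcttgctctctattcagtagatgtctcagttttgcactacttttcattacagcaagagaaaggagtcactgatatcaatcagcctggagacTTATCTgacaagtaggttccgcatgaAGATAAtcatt

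Fcer1a, chr1:173227230-173227479, minus strand: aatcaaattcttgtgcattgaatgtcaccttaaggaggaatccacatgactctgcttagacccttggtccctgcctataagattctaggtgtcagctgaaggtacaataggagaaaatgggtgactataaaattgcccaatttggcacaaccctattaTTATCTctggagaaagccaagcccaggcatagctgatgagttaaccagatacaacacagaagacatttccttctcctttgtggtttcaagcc

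Cd200r3, chr16:44943428-44943677, plus strand: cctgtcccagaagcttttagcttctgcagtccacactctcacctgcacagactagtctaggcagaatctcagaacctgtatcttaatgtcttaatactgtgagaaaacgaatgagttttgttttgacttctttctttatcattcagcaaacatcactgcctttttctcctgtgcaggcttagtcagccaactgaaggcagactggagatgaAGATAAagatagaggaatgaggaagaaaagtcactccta

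Cpa3 held 1 match, 46 bases before the start, Ms4a2 held 3, at 224, 37 and 11 bases, Fcer1a held 1 at 92 bases, and Cd200r3, an activating receptor of mast cells and basophils, held 1 at 39 bases. Matches also lay in the windows of Slc18a2 (230 bases before the start), P2rx1 (242) and both starts of Il1rl1 (217 and 103), whereas those of Tph1, Kit, Hdc, Gata2 and Furin held none. The motif was present in 6.17% of the windows of all tested genes (12082 starts) and in 18.5% of those of mast-list genes that were higher in Cpa3-high cells (10 of 54 starts, 9 of 43 genes). The E-box CATGTG was present in 7.80% and 13% of the same windows, and CACGTG in 8.27% and 3.70%. Over all 32851 gene starts, tested or not, AGATAA was present in 9.99%, CATGTG in 12.3% and CACGTG in 6.02%. The excess in mast-list genes thus depends on the background, and CATGTG lay close to its share over all starts. These are matches of letters and not measured binding sites.

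The cells that passed the quality limits numbered 17219 in the PBS library and 1941 to 6252 in the Decoy libraries, with library totals of 56490098 to 579333323 UMIs. Of the Cpa3-high cells, 4132 came from PBS, 1204 from Decoy 2, 119 from Decoy 3, 534 from Decoy 6 and 1 from Decoy 5. Decoy 5 also held 0 Cpa3-low cells by the same limits, and its single Cpa3-high cell was left out of every comparison, so that 3 Decoy libraries remained. Summed over cells, the Cpa3-high class held 95739925 UMIs in PBS, 33390959 in Decoy 2, 3354915 in Decoy 3 and 12847752 in Decoy 6. Levels below are UMIs per 1000000 UMIs of such a sum (CPM), and Decoy 3 is the least precise of them. At most 4 member barcodes were shared by any pair of libraries.

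Markers of the label that the rule did not use are given next. In mm10 (GENCODE vM21) these protein-coding genes are Tph1 (chr7:46644641-46672537), Il1rl1 (chr1:40429570-40465415), Slc18a2 (chr19:59260896-59296012) and, tested below, Kit (chr5:75574916-75656722). Tph1, Il1rl1 and Slc18a2 were detected in every library's Cpa3-high sum at levels between 304 and 1444 CPM. The Cpa3-low cells of PBS held them too, at 448, 411 and 144 CPM. Their presence is thus a description and no test of the label. Other mast cell products were at or near 0. Among 145333551 UMIs of all Cpa3-high cells in 4 libraries, the tryptases Tpsb2 and Tpsab1 had 0 UMIs, which allows up to 0.0206 CPM, the chymase Mcpt4 had 2 and the mucosal protease Mcpt1 had 21. The prostaglandin D2 synthase Hpgds had 144 UMIs and Tlr9, the receptor for the CpG part of the drug, had 3. The chymase Cma1 was present at 2.26 to 9.59 CPM. The 3 label markers outside the rule were thus present, whereas tryptases were not detected at this depth.

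RNA of other cell types was present in these droplets and differed between the libraries. Summed macrophage markers (C1qa, C1qb, C1qc, Csf1r, Adgre1, Vcam1) stood at 6.10 CPM in the PBS members and at 13.7, 348 and 256 CPM in Decoy 2, 3 and 6, and neutrophil markers (S100a8, S100a9, Ngp, Camp, Ltf, Retnlg) at 97.7, 1353, 43.8 and 839 CPM in the same order. The median member held 0 neutrophil marker UMIs in PBS and 0.802, 0.371 and 0.433 per 10000 in Decoy 2, 3 and 6, so low levels were widespread in the Decoy members. Plasma cell markers (Jchain, Igha, Iglc1, Sdc1, Mzb1) stood at 5.49, 17.3, 246 and 152 CPM, and the 5 T cell markers at 1.68, 15.6, 0.894 and 15.5 CPM. Members with at least 5 per 10000 of B cell, T cell, macrophage, neutrophil or plasma cell markers numbered 34 in PBS, 35 in Decoy 2, 6 in Decoy 3 and 28 in Decoy 6. Xist, expressed from the inactive X chromosome, had a UMI in 98.9 to 100% of the members of these libraries. A Y-linked UMI (Ddx3y, Eif2s3y, Kdm5d or Uty) was present in 1.33% of PBS members and in 1.5%, 6.72% and 3.75% of those of Decoy 2, 3 and 6, against 52.2 to 77.0% of cells with at least 5 per 10000 of the B cell markers in the same libraries. Of the Cpa3-low cells, 1.77%, 1.67%, 9.35% and 7.04% held a Y-linked UMI in PBS, Decoy 2, 3 and 6. Cpa3-low cells with at least 5 per 10000 of the same 5 sets of markers made up 1.08%, 2.45%, 14.4% and 8.78%.

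Cells lay on either side of the limit of 15 Cpa3 UMIs per 10000. Median Cpa3 in Cpa3-high cells was 33.2 per 10000 in PBS, 34.5 in Decoy 2, 32.8 in Decoy 3 and 36.1 in Decoy 6, and single cells reached 166 to 317. Between 12 and 15 per 10000, just outside, lay 742 PBS cells with Tph1 at 687 CPM and Kit at 54.3 CPM, and between 15 and 18, just inside, lay 569 with Tph1 at 862 and Kit at 65.3 CPM. In Decoy 2, 3 and 6 the cells just outside and just inside held Tph1 at 662 and 780, at 503 and 956, and at 675 and 944 CPM, and Kit at 58.5 and 60.3, at 31.7 and 45.1, and at 34.7 and 33.1 CPM, the Decoy 3 values coming from 24 and 17 cells. The class is a range of Cpa3 cut at a set value, and whether its cells form a cluster was not tested. Summed Cpa3 reached 3875, 4224, 4294 and 4417 CPM in the Cpa3-high cells of PBS, Decoy 2, 3 and 6, against 412 to 484 CPM in the Cpa3-low cells. Fcer1a (1682 to 2078 against 634 to 756 CPM) and Ms4a2 (846 to 882 against 510 to 538 CPM) were carried by the Cpa3-low cells too.

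With rising Cpa3 the mast genes climbed with Cpa3 and the division genes declined. In PBS, from cells under 2 per 10000 of Cpa3 through those of 2 to 5, 5 to 15, 15 to 25 and 25 to 50 to those of 50 or more, Tph1 stood at 347, 405, 566, 931, 1344 and 2226 CPM. Kit, the stem cell factor receptor on which the sort was made, stood at 31.8, 35.0, 44.1, 68.9, 112 and 272 CPM in the same order. The proliferation gene Mki67 ran the other way, at 455, 438, 397, 330, 227 and 62.8 CPM. Each step thus moved the same way in PBS, within the Cpa3-low cells as well as within the Cpa3-high ones. Gata2 was at 22.7 CPM in the lowest PBS bin and 114 in the highest, while Gata1, the erythroid, megakaryocyte and mast cell factor, was at 161 and 148 CPM. The end bins of Decoy 2, 3 and 6 held Tph1 at 283, 320 and 407 CPM (lowest Cpa3) against 1962, 1934 and 2313 CPM (highest), and Mki67 at 450, 426 and 400 against 51.7, 118 and 38.1 CPM. The highest Decoy 3 bin rests on 35 cells, and Kit in Decoy 3 dipped from 31.4 CPM in the lowest bin to 24.7 CPM at 5 to 15 per 10000 before reaching 212 CPM. In Decoy 3, Tph1 also dipped to 290 CPM and Mki67 to 364 CPM at 2 to 5 per 10000. Median UMIs per cell declined with rising Cpa3, from 37747.5 to 14310.5 in PBS.

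**Figure D1:**
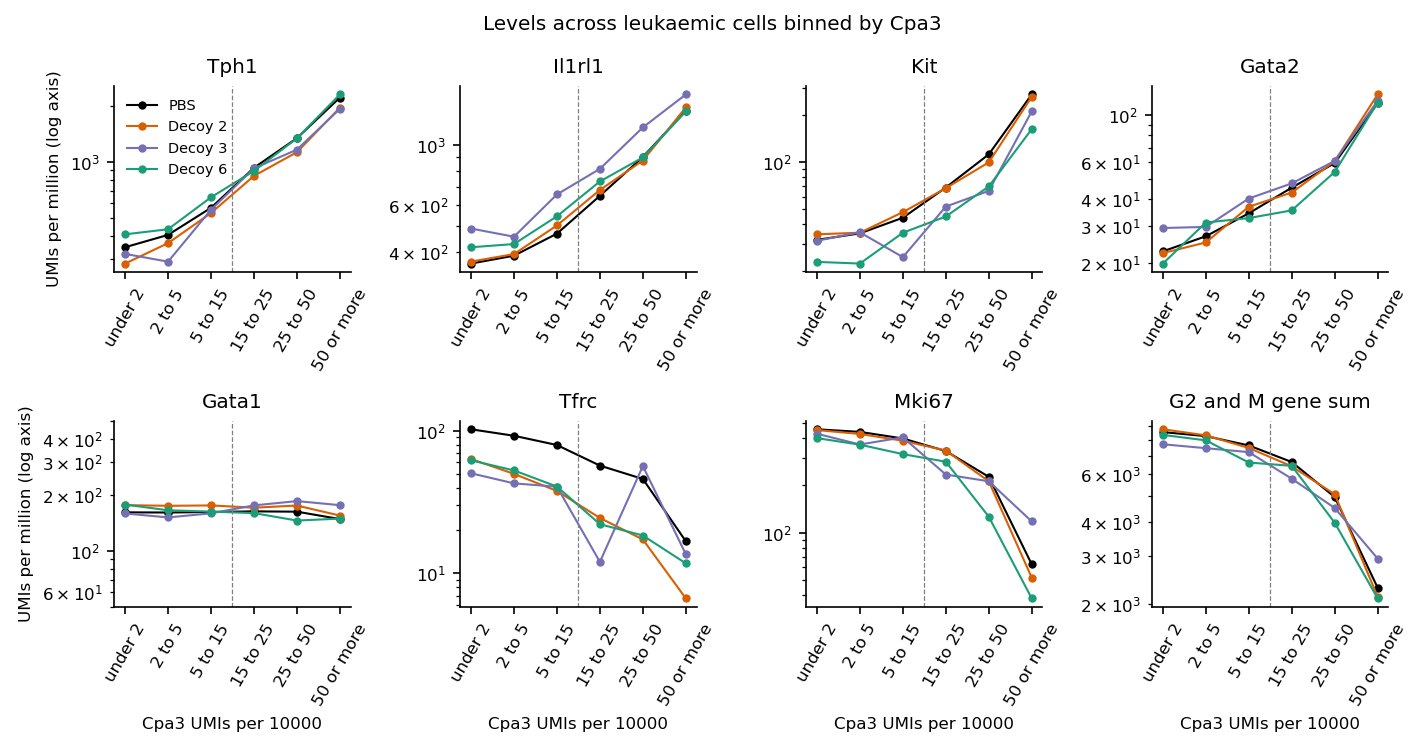
Levels of 7 named genes and of the summed G2 and M genes (vertical log axes, CPM of the summed cells) in leukaemic cells grouped by their Cpa3 (horizontal axes, UMIs per 10000), with 1 line for each of the PBS, Decoy 2, Decoy 3 and Decoy 6 libraries and a dashed line at the limit of 15. Tph1 in PBS climbs from 347 to 2226 CPM and Mki67 falls from 455 to 62.8 CPM, and between their end bins the other libraries move the same way.

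The first comparison asked which other genes went with high Cpa3, in the same way in the 4 libraries. The classes were cut from Cpa3 in the same cells, so a call says that a gene's association with Cpa3 was constant over libraries relative to its spread, and no more. Of 12359 genes tested, 4097 (33.1%) were higher and 3568 (28.9%) lower in Cpa3-high cells at an adjusted p under 0.05 (edgeR quasi-likelihood test with the library as a block), so a call alone is no distinction, and the size of the difference and the share of a list are read against these backgrounds. The median log2 difference over all genes was 0.03, and log2 differences (Cpa3-high minus Cpa3-low) stand in brackets after gene names below. Of the calls, 3363 higher and 3445 lower genes had the same direction in each of the 4 libraries.

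Among the genes of granule amines and lipid mediators, 15 of 18 tested members were higher in Cpa3-high cells, 0 were lower and the median log2 difference was 0.80. Tph1 stood at 1355, 1223, 1255 and 1444 CPM in the Cpa3-high cells of PBS, Decoy 2, 3 and 6, and at 448, 385, 395 and 511 CPM in the Cpa3-low cells. The classes did not overlap, and the log2 difference was 1.66 ± 0.03 (SE, 4 libraries; adjusted p = 8.72e-08). Slc18a2 stood at 318, 315, 361 and 304 CPM against 144, 146, 154 and 151 CPM, a log2 difference of 1.17 ± 0.03 (SE; adjusted p = 3.94e-07). Hdc stood at 169, 177, 297 and 174 CPM against 75.1, 82.8, 120 and 84.6 CPM, with its highest value in Decoy 3 in both classes. Alox5ap, which presents arachidonic acid to 5-lipoxygenase in leukotriene synthesis, stood at 452, 438, 526 and 560 CPM against 147, 138, 200 and 209 CPM (log2 difference 1.58 ± 0.05, SE). The leukotriene C4 synthase Ltc4s (1.16), the granule proteoglycan Srgn (0.83) and the granule membrane protein Cd63 (1.00) were also higher, and Hpgds, Pla2g4a and Ndst1 were not called.

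Of 12 granule proteases on the list, Cpa3 was left out as a gene of the rule. Of the others, 3 were measured well enough to be tested, and 2 were higher. Chymase Cma1 stood at 9.59, 4.34, 7.75 and 2.26 CPM in the Cpa3-high cells against 0.323, 0.0529, 0.299 and 0.102 CPM, so it was low everywhere but 5.20 ± 0.26 (SE) log2 units higher with Cpa3. Granzyme B (Gzmb) stood at 64.4, 84.2, 59.9 and 58.8 CPM against 1.78, 3.14, 14.7 and 11.3 CPM. The remaining protease, Ctsg, belongs to granulocytes as well and is given with them below.

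Of the receptor genes on mast cells, 20 of 23 were higher, 0 were lower and the median log2 difference was 1.12. Il1rl1 stood at 883, 922, 1112 and 955 CPM in Cpa3-high cells and at 411, 419, 539 and 472 CPM in Cpa3-low cells, a log2 difference of 1.12 ± 0.02 (SE; adjusted p = 1.24e-07). Kit stood at 128, 128, 95.4 and 86.4 CPM against 37.4, 38.9, 30.3 and 27.8 CPM (1.75 ± 0.04, SE; adjusted p = 1.14e-07). Both receptors separated the classes in each library. The ATP-gated channel P2rx1 stood at 20.4, 26.9, 28.9 and 24.7 CPM against 3.19, 4.15, 4.68 and 3.78 CPM, and Csf2rb2, a beta chain of the interleukin 3 receptor, at 265, 359, 359 and 394 CPM against 107, 129, 130 and 163 CPM. The histamine receptor Hrh4 (2.80), the interleukin 18 receptor Il18r1 (2.67), the integrin Itga2b (1.53), Cd200r3 (1.51) and the interleukin 3 receptor subunits Il3ra (1.12) and Csf2rb (0.89) were higher on the same log2 scale. Thinned to 5000 UMIs a cell, a Kit UMI was present in 42.1% of Cpa3-high and 16.6% of Cpa3-low PBS cells, against 0% of cells with B cell markers, and unthinned in 75.2%, 63.0% and 0.995%.

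The IgE receptor and its signalling chain showed 16 of 18 members higher and 0 lower, with a median log2 difference of 0.46. The adaptor Lat2 stood at 64.0, 77.5, 59.9 and 91.8 CPM in Cpa3-high cells and at 3.61, 3.58, 11.9 and 8.07 CPM in Cpa3-low cells (3.90 ± 0.26, SE). The shared gamma chain Fcer1g stood at 343, 325, 510 and 511 CPM against 71.5, 75.2, 363 and 288 CPM. Its difference was small in Decoy 3 and 6, the libraries with most macrophage RNA in the members, and the part of other cells in this was not tested. The kinase Btk (0.70), the calcium sensor Stim1 (0.66) and the adaptor Grap2 (0.76) were higher, and the kinase Fyn and the adaptor Lat were not called.

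Transcription factors split, with 17 of 35 higher, 9 lower and a median of 0.21. Gata2 stood at 65.1, 69.5, 68.9 and 63.7 CPM in Cpa3-high cells against 28.3, 27.6, 33.3 and 28.1 CPM (1.26 ± 0.05, SE; adjusted p = 7.15e-07). Mitf stood at 18.6, 16.7, 19.7 and 12.8 CPM against 6.30, 5.63, 9.55 and 6.33 CPM (1.45 ± 0.10, SE). Gata1 did not follow them: it stood at 160, 168, 179 and 152 CPM against 161, 175, 157 and 168 CPM, and the log2 difference was 0.03 ± 0.05 (SE; adjusted p = 0.586). Runx1 (0.59), which binds DNA together with the CBFB protein whose gene inv(16) breaks, the megakaryocyte and erythroid factor Nfe2 (1.45) and Spi1 (PU.1, 0.32) were higher. The inhibitor of differentiation Id1 stood at 36.6, 27.9, 25.3 and 35.1 CPM against 64.1, 54.6, 51.3 and 65.1 CPM, so it was lower in each library, and Id2 was higher (1.22). Lmo2 (-0.70), Hlf (-0.81) and Klf1 (-0.31) were lower, and Gfi1b was not called.

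**Figure D2:**
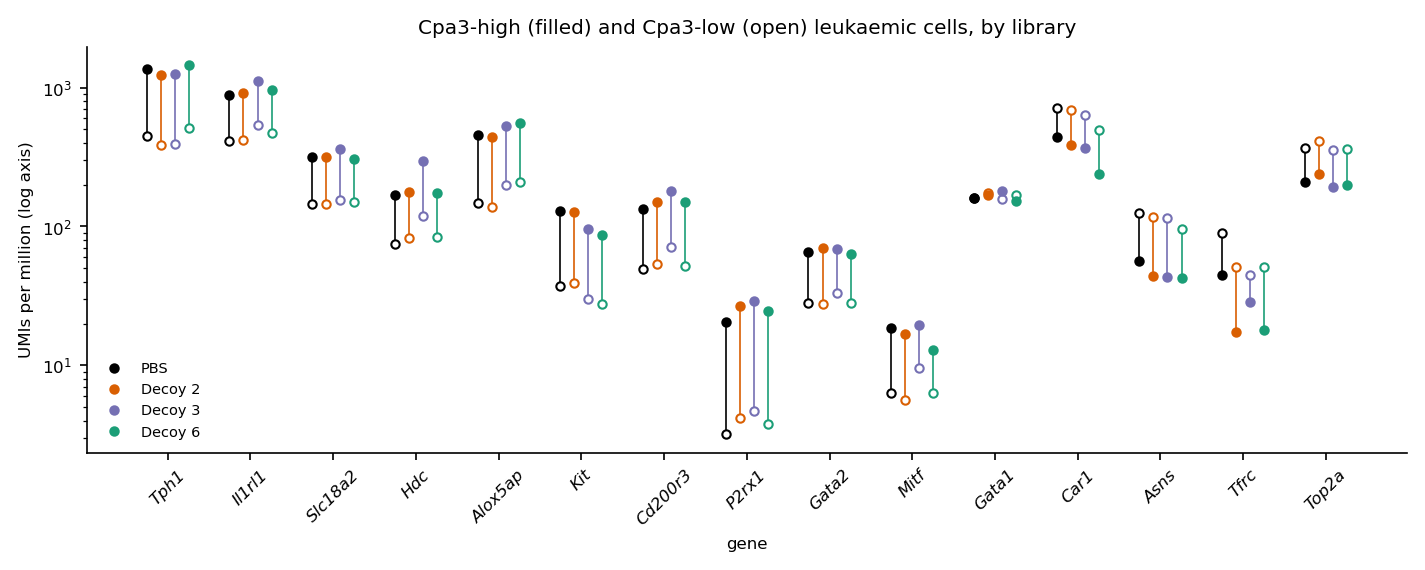
Levels of named genes (vertical log axis, CPM) in the Cpa3-high (filled) and Cpa3-low (open) sums of the PBS, Decoy 2, Decoy 3 and Decoy 6 libraries, with a line joining the classes of a library. Kit is higher in Cpa3-high cells in each library (86.4 to 128 against 27.8 to 38.9 CPM) and Gata1 overlaps between the classes (152 to 179 against 157 to 175 CPM).

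Genes of neighbouring lineages did not move as one block. Of 13 megakaryocyte and platelet genes, 9 were higher and Pf4 was lower, the integrin subunits Itga2b (1.53) and Itgb3 (1.67) and the thrombin receptor F2r (1.11) among the higher ones. Of 23 erythroid genes, 13 were lower and 6 higher. Carbonic anhydrase 1 (Car1) stood at 437, 386, 365 and 240 CPM in Cpa3-high cells against 713, 685, 635 and 495 CPM, and the transferrin receptor Tfrc at 44.4, 17.5, 28.6 and 18 CPM against 90.5, 51.4, 44.4 and 50.8 CPM. Tfrc, which imports iron for haem and for dividing cells, was also lower in every Decoy library than in PBS within either class. The adult globins Hbb-bt (1.24) and Hbb-bs (1.19) went the other way from Car1, Car2 (-0.72) and Klf1. The sum of 8 erythroid markers was 4202, 3707, 10145 and 4440 CPM in Cpa3-high cells of PBS, Decoy 2, 3 and 6. It was 2951, 2553, 4279 and 3406 CPM in Cpa3-low cells. The median cell held 13.47, 11.33, 11.97 and 12.34 per 10000 against 13.53, 11.25, 13.47 and 11.37. The higher sums thus do not describe the median cell, and globins alone were not tested per cell. Of 14 stem and progenitor genes, 7 were higher, among them Angpt1 (1.67), Cd34 (1.37) and Cd48 (0.91), and Myc was lower (-0.17).

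Granulocyte and monocyte genes were few in number of UMIs, and their direction depended on which cells were counted. Of 24 tested, 8 were lower, 3 higher and the median was -0.52. Mpo, the myeloperoxidase of early granulocytes, stood at 0.136 to 0.701 CPM in Cpa3-high and 0.944 to 10.3 CPM in Cpa3-low cells, a log2 difference of -3.26. Ctsg, a granule protease of granulocytes and mast cells, stood at 0.313, 0.539, 0.596 and 0.467 CPM in Cpa3-high cells of PBS, Decoy 2, 3 and 6 against 1.28, 8.22, 14.2 and 14.7 CPM (-3.42 ± 0.36, SE), and its difference was 0.43 without cells bearing a Y-linked UMI. With those cells left out, the Mpo difference was 0.29 and 5 of 21 tested genes of the list were higher and 6 lower. Among cells of 15000 to 40000 UMIs, a limit added after the data were seen, 9 of 19 were higher and 0 lower. Irf8, the macrophage and dendritic cell factor named in the series title, stood at 0.773, 1.44, 12.2 and 8.09 CPM in the Cpa3-high cells of PBS, Decoy 2, 3 and 6 against 1.14, 2.40, 23.7 and 13.1 CPM in the Cpa3-low cells. Its log2 difference of -0.67 likewise became 0.33 without cells bearing a Y-linked UMI. No direction is read from these genes.

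Cell division genes were lower in Cpa3-high cells almost throughout. Of 53 genes of the G2 and M phases, 52 were lower, 0 higher and Psrc1 was not called, with a median of -0.79. Of 40 S phase genes, 37 were lower and 1, Rfc2 (0.61), was higher. Top2a, the topoisomerase of dividing cells, stood at 210, 238, 194 and 198 CPM in Cpa3-high cells against 370, 415, 358 and 363 CPM (-0.79 ± 0.03, SE; adjusted p = 4.19e-07). Mki67 stood at 237, 219, 198 and 161 CPM against 428, 422, 398 and 355 CPM (-0.94 ± 0.04, SE; adjusted p = 1.11e-06). The classes were apart in each library by more than the libraries differed. The spindle checkpoint kinase Bub1 (-1.12), survivin (Birc5, -1.0) and the ribonucleotide reductase subunit Rrm2 (-0.90) lay in the same range. Per cell, the median sum of G2 and M genes was 20.9, 20.6, 20.4 and 20.8 per 10000 UMIs in the Cpa3-high cells against 70.4, 72.4, 61.3 and 62.1 per 10000. Depth per cell moved with this: median UMIs were 20284, 25289, 25588 and 22620 in Cpa3-high cells and 35551, 40693.5, 35411 and 32142.5 in Cpa3-low cells. Within the range of 15000 to 40000 UMIs, 50 of 53 G2 and M genes were lower, 1 was higher and the median was -0.59.

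The unfolded protein and integrated stress response list was split, with 8 of 22 genes higher and 8 lower. Asparagine synthetase (Asns) stood at 56.8, 43.9, 43.5 and 42.5 CPM in Cpa3-high cells against 126, 117, 115 and 96.4 CPM. Its activator Atf4 (-0.58) and the pseudokinase Trib3 (-1.10) were lower, and the growth inhibitor Ddit4 (1.53) was higher. Mthfd2, a mitochondrial folate enzyme outside the list, was among the largest lower differences of all genes (-1.23). Of 23 immediate early and heat shock genes, 14 were higher, among them Fos (0.83) and Jund (0.83), and 4 were lower, among them the chaperone Hspa8 (-0.37).

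**Figure D3:**
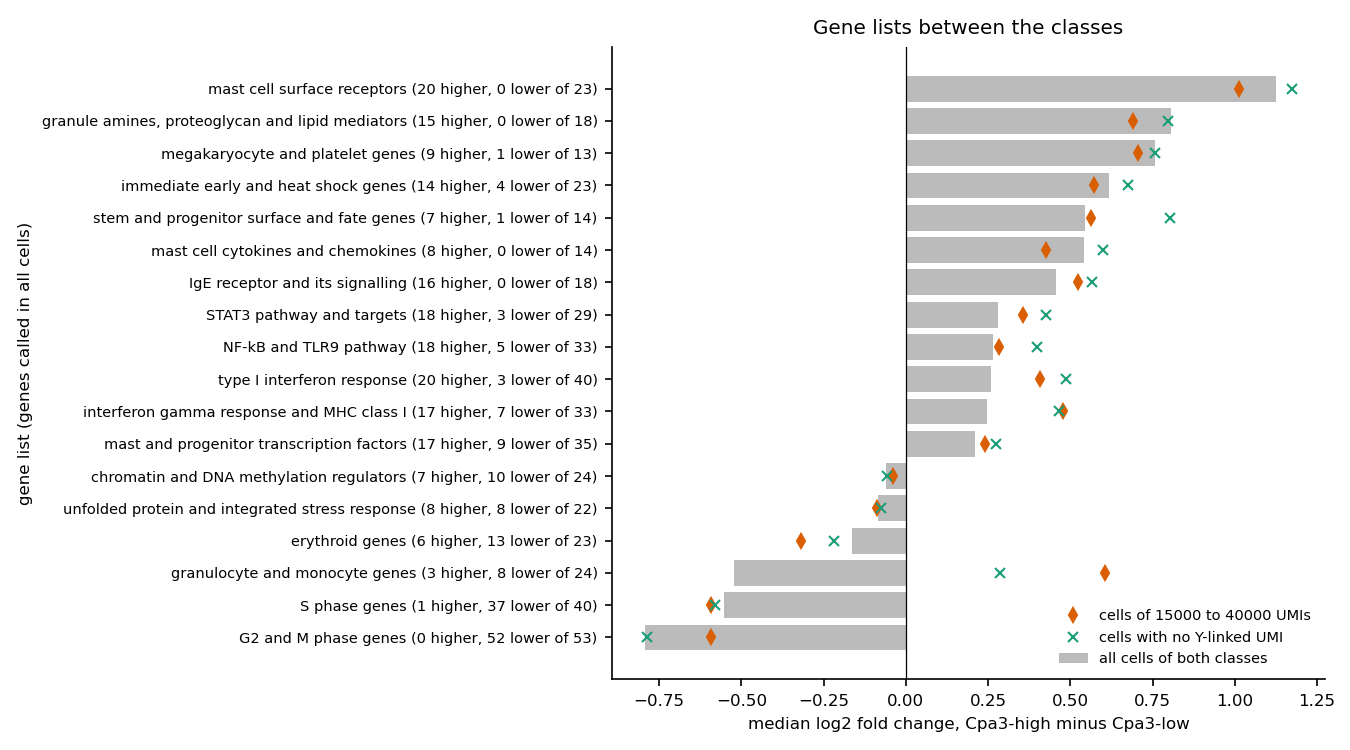
Median log2 difference, Cpa3-high minus Cpa3-low, of each gene list (horizontal axis) over all cells of both classes (bars), among cells of 15000 to 40000 UMIs (diamonds) and without cells bearing a Y-linked UMI (crosses), with the called genes counted in the row names. The receptor and amine lists lie to the right (bars at 1.12 and 0.80), the S and the G2 and M lists to the left (-0.55 and -0.79), and the granulocyte and monocyte list has its bar at -0.52 but both its other marks above 0.

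Genes of signalling pathways relevant to the drug were read in the same way. Of 29 genes of the STAT3 pathway, 18 were higher and 3 lower in Cpa3-high cells, with a median of 0.28, and Stat3 itself stood at 86.1, 75.5, 76.0 and 68.7 CPM against 64.9, 58.3, 68.3 and 59.6 CPM (0.35 ± 0.05, SE; adjusted p = 0.000256). The survival kinases Pim2 (1.94) and Pim1 (1.35) were higher, Socs3 was not called, and the feedback inhibitor Socs1 was higher (1.20). Of 40 type I interferon genes, 20 were higher and 3 lower (median 0.26), and of 33 interferon gamma and MHC class I genes, 17 were higher and 7 lower (median 0.25). These counts depended on the cells taken. Without cells bearing a Y-linked UMI, 27 of 38 type I genes were higher and 1 lower (median 0.49). Of 33 interferon gamma and MHC class I genes, 24 were then higher and 2 lower (median 0.47). Of 33 genes of the NF-kB and TLR9 pathway, 18 were higher and 5 lower (median 0.27), Rel (1.53), Tnfaip3 (1.19) and Nfkbia (0.56) among the higher ones. Over all cells of both classes, the STAT3 list exceeded the 33.1% background of higher genes by the most of these 4. Its 3 lower members were the survivin gene Birc5, Ptpn11 and Myc. Without cells bearing a Y-linked UMI that order did not hold. Then 19 of 28 STAT3 genes and 20 of 28 NF-kB and TLR9 genes were higher, beside 4666 of 12045 genes in all. Of 14 mast cell cytokine genes, 8 were higher and 0 lower, with Il13 (1.94), Il4 (0.84) and Il6 (0.79) among them. Of 24 chromatin and DNA methylation regulators, 7 were higher, Tet2 (0.39) and Dnmt3a (0.28) among them, and 10 lower, Uhrf1 (-0.68) and Dnmt1 (-0.39), which copy methylation at replication, among them.

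The largest higher differences among genes of at least 20 CPM included genes outside the lists. Furin, a protease that cleaves precursor proteins on their way to the surface, stood at 66.3, 129, 270 and 114 CPM in the Cpa3-high cells of PBS, Decoy 2, 3 and 6, and at 7.74, 12.7, 26.1 and 14.9 CPM in the Cpa3-low cells (3.23 ± 0.07, SE; adjusted p = 1.24e-07). Both classes of Decoy 3 were highest and both of PBS lowest for Furin. The inhibitory receptor Lilrb4a (3.19), the tyrosine kinase Fes (2.79), lymphotoxin beta (Ltb, 2.75), the actin-severing protein Scin (2.62) and the signalling regulator Rgs1 (2.53) were among them too, and the IgG receptor Fcgr3, of the granulocyte and monocyte list, was higher by 2.30.

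The second question was whether the drug moved the share of leukaemic cells that are Cpa3-high. Counted against Cpa3-high and Cpa3-low cells together, the share was 28.5% in PBS (95% exact binomial interval 27.8 to 29.3%) and 25.1% (23.9 to 26.3%), 29.97% (25.5 to 34.7%) and 38.1% (35.6 to 40.7%) in Decoy 2, 3 and 6. The Decoy mean was 31.1% ± 6.60 (SD, n = 3), 2.55 percentage points above PBS, and the exact two-sided permutation test gave p = 0.75 where the smallest p that 1 library against 3 allows is 0.25. PBS lay inside the range of the Decoy libraries. Without Decoy 6 the difference was -0.99 points. Among cells of 15000 to 40000 UMIs the PBS share was 29.0% and the Decoy libraries lay above it, at 36.4, 41.6 and 42.6% (mean 40.2% ± 3.36, SD, n = 3; exact p = 0.25). As a share of all barcodes passing the quality limits, Cpa3-high cells made up 24.0% in PBS and 19.3%, 6.13%, 0.0277% and 16.6% in Decoy 2, 3, 5 and 6. The intervals cover counting error only.

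**Figure D4:**
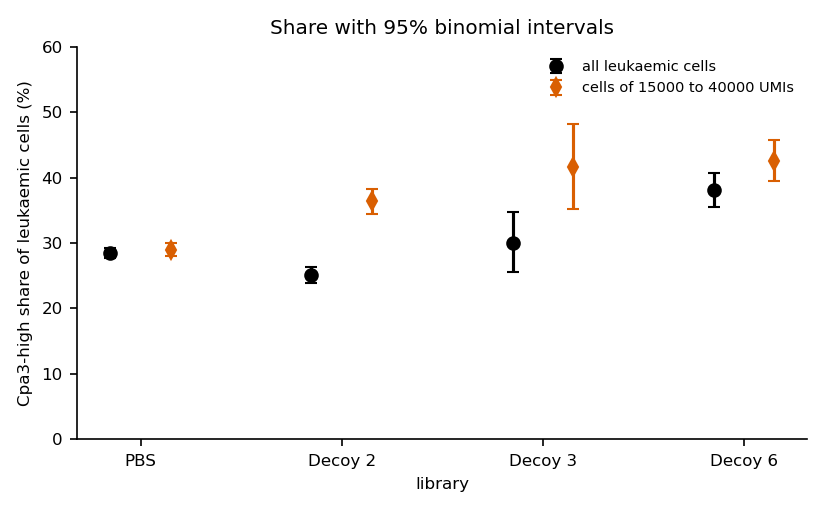
Share of leukaemic cells that are Cpa3-high (vertical axis, percent) in each library over all cells (circles) and over cells of 15000 to 40000 UMIs (diamonds), with 95% exact binomial intervals as bars. Over all cells PBS (28.5%) lies within the Decoy range of 25.1 to 38.1%, and in the depth window PBS (29.0%) lies below the 3 Decoy libraries (36.4 to 42.6%).

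The third question was which genes differed within Cpa3-high cells between the PBS library and the 3 Decoy libraries. There is 1 PBS library, so it is assumed to vary like the Decoy ones, and a p-value measures only the spread between these libraries. Over all members 0 of 12796 genes (0%) were called at an adjusted p under 0.05, the smallest adjusted p was 0.16, and 1057 genes had an unadjusted p under 0.05. DESeq2 called 312 genes and limma-voom 13 on the same sums. With members at or above 5 per 10000 of other-lineage markers left out, a selection added after the data were seen, 93 of 12321 genes (0.755%) were higher and 26 (0.211%) lower in Decoy. Of these 119, 70 were also called without cells bearing a Y-linked UMI, and 50 (40 higher, 10 lower) also among cells of 15000 to 40000 UMIs. Leaving out Decoy 2 from the fit over all members gave 291 calls and leaving out Decoy 3 gave 46, so the count turns on single libraries.

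The levels of the mast genes between PBS and Decoy were as follows, with 0 genes called in all, so that a missing call is nothing particular to them. Cpa3, which chose the cells, stood at 3875 CPM in PBS and 4312 ± 97.9 (SD, n = 3) in Decoy, a log2 difference of 0.23. The log2 differences of Fcer1a (0.29) and Ms4a2 (0.12), also genes of the rule, are likewise a description. Among genes the rule did not use, Tph1 (0.03), Il1rl1 (0.25), Slc18a2 (0.12), Gata2 (0.13), Mitf (-0.14) and Kit (-0.23) were not called over all members. With other-lineage droplets left out, 0 genes of the granule protease, amine, IgE receptor and transcription factor lists were called, beside backgrounds of 0.755% higher and 0.211% lower over all genes. The protease and IgE receptor lists of this comparison hold Cpa3, Fcer1a and Ms4a2. Because these genes chose the cells in every library, their missing calls are a description and no test. On the receptor list 1 of 21 was called: Csf2rb2, at 265 CPM in PBS and 359, 359 and 394 CPM in Decoy over all members, was higher by 0.61 ± 0.12 (SE; adjusted p = 0.0373) in that selection, and was not called without cells bearing a Y-linked UMI (adjusted p = 0.0618). Stat3 stood at 86.1 CPM in PBS and 73.4 ± 4.06 (SD, n = 3) in Decoy and was not called (-0.15), and the STAT3 list had a median of -0.04 with 1 of 28 higher (Ccnd2) and 1 lower (Bcl2). Cyclin D2 (Ccnd2) stood at 184 CPM in PBS and 244, 272 and 254 CPM in Decoy, and the survival gene Bcl2 at 58.2 CPM against 36.2, 31.6 and 36.7 CPM. Each Decoy library lay on the same side of PBS for both genes. Ccnd2 was not called without cells bearing a Y-linked UMI (adjusted p = 0.0824) or among cells of 15000 to 40000 UMIs (adjusted p = 0.07), and Bcl2 was not called in the latter (adjusted p = 0.117).

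Several interferon genes were higher in Decoy once droplets with other-lineage RNA were left out. Over all members Ifitm3, an antiviral membrane protein, stood at 47.3 CPM in PBS and at 116, 263 and 219 CPM in Decoy 2, 3 and 6 (log2 difference 2.14, adjusted p = 0.305). With other-lineage droplets left out the values were 46.3 against 96.7, 172 and 177 CPM (1.75 ± 0.28, SE; adjusted p = 0.0139). B2m, the light chain of MHC class I, stood at 362 against 513, 628 and 613 CPM in that selection (0.78 ± 0.14, SE; adjusted p = 0.0224). All 3 Decoy libraries were above PBS for both. The oligoadenylate synthetase Oas3 stood at 2.33 against 5.54, 4.91 and 5.99 CPM, the interferon-induced Ifi27l2a at 4.11 against 13.4, 23.2 and 21.5 CPM and Xaf1 at 4.53 against 7.67, 7.53 and 7.94 CPM. Rsad2 (viperin), another interferon-induced gene, went the other way, at 7.31 CPM in PBS and 0.650, 1.31 and 0.253 CPM in Decoy (-3.53 ± 0.34, SE; adjusted p = 0.00185). In that selection 4 of 39 type I interferon genes were higher, 1 was lower and the median was 0.42, with 35 above 0. Without cells bearing a Y-linked UMI, 3 of 39 were higher (Ifitm3, Ifi27l2a and Oas3), and Xaf1 was not called. Of 32 interferon gamma and MHC class I genes, 2 were higher (B2m and the proteasome activator Psme1, 0.57) and the median was 0.44. Psme1 was not called without cells bearing a Y-linked UMI (adjusted p = 0.0651) or among cells of 15000 to 40000 UMIs (adjusted p = 0.0634). Both lists lie above the background of 0.755% higher genes, by counts of 4 and 2.

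Granulocyte genes and immunoglobulin transcripts, which are not mast genes, moved in the same direction even with those droplets left out. Of 19 granulocyte and monocyte genes, 8 were higher in Decoy, with a median of 1.99. S100a8, S100a9, Ngp, Camp, Ltf and Csf1r of this list are also markers by which droplets were left out. That limit caps their level per cell and can narrow their spread between libraries, so calls among them are no independent test. The count of 8 and the median include those of them that were tested and called or tested. Over all members S100a8 stood at 41.6 CPM in PBS and at 642, 24.1 and 331 CPM in Decoy 2, 3 and 6. Of 22 list genes tested without cells bearing a Y-linked UMI, 3 were higher. S100a8 stood at 7.03 CPM in PBS and at 39.7, 17.7 and 20.3 CPM in Decoy, and the immunoglobulin light chain Igkc at 4.03 against 23.6, 96.2 and 69.6 CPM. Ly6a, an interferon-induced surface antigen that lymphocytes also carry, stood at 0.894 against 5.72, 10.1 and 8.19 CPM. Without cells bearing a Y-linked UMI, S100a8 (adjusted p = 0.14) and Igkc (adjusted p = 0.257) were not called, and Ly6a and S100a8 were not called among cells of 15000 to 40000 UMIs (adjusted p = 0.0906 and 0.615). The part of RNA from other cells in the interferon values was not tested. Irf8 was at 0.494, 0.464, 1.31 and 1.27 CPM in PBS, Decoy 2, 3 and 6 in this selection and was not called (adjusted p = 0.798).

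The promoters of 2 interferon genes with opposite differences are shown because both held GAAANNGAAA on one of the strands, a motif of interferon response elements (in capitals), which lay in 2.76% of the windows of tested genes.

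Oas3, chr5:120777660-120777909, minus strand: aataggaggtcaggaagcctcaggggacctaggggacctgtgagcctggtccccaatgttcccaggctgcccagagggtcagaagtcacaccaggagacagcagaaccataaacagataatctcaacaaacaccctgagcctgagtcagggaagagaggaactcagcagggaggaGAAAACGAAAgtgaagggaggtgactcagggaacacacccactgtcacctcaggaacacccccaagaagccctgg

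Rsad2, chr12:26456453-26456702, minus strand: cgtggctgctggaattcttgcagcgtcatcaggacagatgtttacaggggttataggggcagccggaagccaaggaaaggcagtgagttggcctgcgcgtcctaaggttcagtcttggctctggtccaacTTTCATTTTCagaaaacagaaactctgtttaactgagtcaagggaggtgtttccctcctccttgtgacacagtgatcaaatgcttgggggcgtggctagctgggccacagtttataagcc

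The match lay 75 bases before the start of Oas3 and 120 bases before that of Rsad2, and B2m held 1 at 139 bases, while the windows of Ifitm3, Xaf1 and Psme1 held none.

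**Figure D5:**
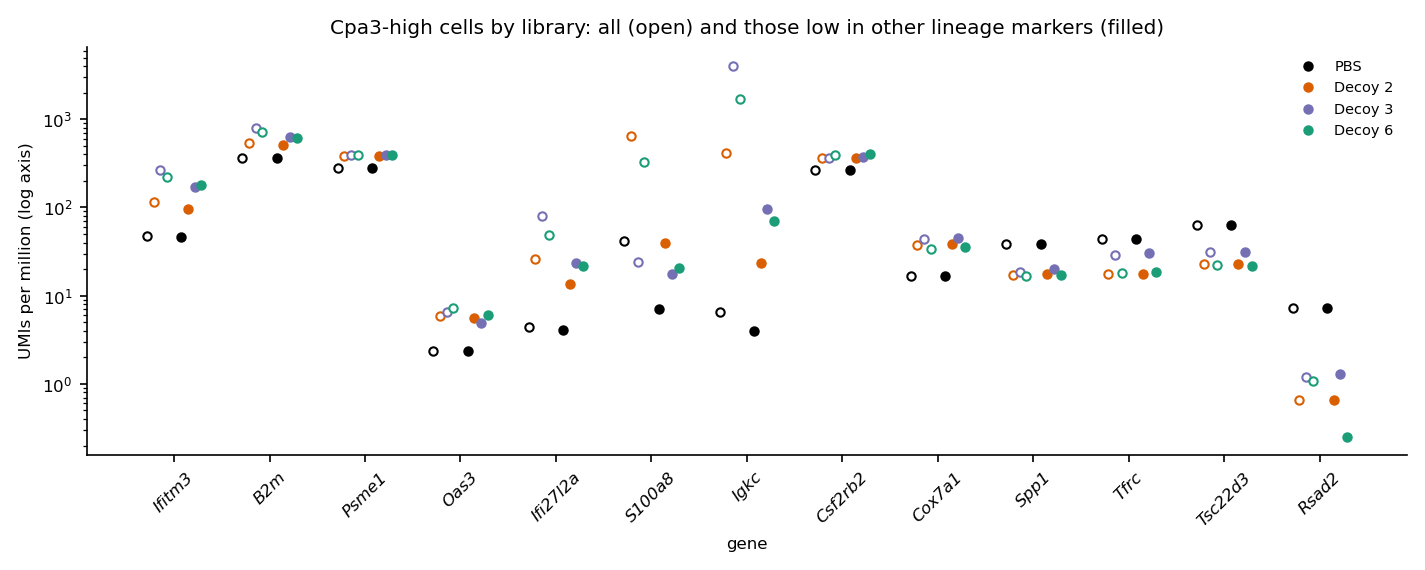
Levels of named genes (vertical log axis, CPM) in the Cpa3-high cells of the PBS, Decoy 2, Decoy 3 and Decoy 6 libraries, over all members (open) and with other-lineage droplets left out (filled). Ifitm3 is above PBS in the 3 Decoy libraries in either selection (116 to 263 against 47.3 CPM, and 96.7 to 177 against 46.3 CPM).

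With other-lineage droplets left out, 26 genes were lower in Decoy. Tsc22d3 (GILZ), a target of glucocorticoids, stood at 63.1 CPM in PBS and at 22.9, 31.0 and 22.4 CPM in Decoy over all members, and was called with other-lineage droplets left out (-1.30 ± 0.14, SE; adjusted p = 0.00185). Spp1 (osteopontin) stood at 38.3 CPM against 17.2, 18.5 and 16.7 CPM (-1.01 ± 0.12, SE; adjusted p = 0.00291 in that selection). In that selection Tfrc stood at 44.2 CPM against 17.6, 30.8 and 18.3 CPM (-1.05 ± 0.19, SE). PBS was the highest library for each of these genes, as the rule for naming genes of largest difference required. The actin regulator Enah stood at 112 CPM against 62.9, 63.2 and 61.2 CPM in the same selection (-0.75). The haem synthesis enzyme Alas2 stood at 9.48 CPM in PBS and 6.85 ± 4.91 CPM (SD, n = 3) in Decoy over all members and was not called (-0.61, adjusted p = 0.892). It was called with other-lineage droplets left out (-1.06, adjusted p = 0.0137), but not without cells bearing a Y-linked UMI (0.102) or among cells of 15000 to 40000 UMIs (0.0557). Among G2 and M genes 1 of 53 was called, Ccnb2 (-0.58), and the list's median was -0.15.

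The last comparison asked whether the drug difference itself differed between Cpa3-high and Cpa3-low cells. Of 12359 genes, 0 (0%) were called for this interaction, the smallest adjusted p was 0.122 (the immunoglobulin gene Ighg2c), and 178 genes had an unadjusted p under 0.05. DESeq2 called 6, and leaving out 1 Decoy library gave 1 to 95 calls, 95 of them without Decoy 2. Ifitm3 went from 47.3 CPM in PBS to 199 ± 75.1 (SD, n = 3) in Decoy among Cpa3-high cells, and from 54.7 to 220 ± 79.8 CPM among Cpa3-low cells, with an interaction of 0.08 ± 0.07 log2 units (SE). B2m had an interaction of -0.02 and Tfrc of -0.30 log2 units, and neither was called. Tsc22d3 had the larger drop in Cpa3-high cells (interaction -0.78 log2 units), with an adjusted p of 0.729.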

How the data were processed

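The values are UMI counts per gene and droplet from 10x Genomics 3′ libraries of 5 samples, deposited by the authors as filtered matrices. Per the file headers the counts were made with Cell Ranger 5.0.0, while the submitters' processing notes name Cell Ranger 3.1, Seurat 4, DESeq2 and the build mm10. Cell filters, the rule for the class and the other-cell markers are stated with the results. The members, gene lists and tests were chosen with earlier results of these data known.

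Raw counts were summed per library and class and tested with edgeR 4.0.16 (quasi-likelihood F test, TMM scaling, R 4.3.3, Benjamini-Hochberg adjustment over all genes kept by the low-count filter), with the standard error taken from the F statistic. The class test had the library as a block. Drug tests compared 1 PBS with 3 Decoy libraries. Shares were tested by exact permutation of libraries (Python 3.11.15). The 7 genes of the rule stayed out of the class tests. Named genes were the 6 label markers and 9 further genes fixed by name, the 8 called genes of largest difference in each direction among those of at least 20 CPM with the same sign in each library, and the called members of each list with the smallest p, 4 at most (the 2 most abundant where none was called). Further genes named from a list (for example Psrc1, Rfc2 or Pf4) were chosen after their values were seen. On simulated counts the drug test recovered 89% of 100 genes changed 2-fold among 12549 genes and 100% of those changed 4-fold. There were 12 false calls. In the real counts over all members, Tsc22d3 (log2 difference -1.27), Cox7a1 (1.26) and Mir142hg (1.99) changed more than 2-fold and were not called. The simulated recovery is therefore not a measure of what the drug test can find in these libraries.

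Alternatives were DESeq2 size factors, DESeq2 1.42.0, limma-voom 3.58.1, no low-count filter, a floor of 5000 UMIs a cell, doublets removed, cells without Y-linked UMIs, Cpa3 limits of 10 and 25 per 10000, each library left out, and, added after seeing the data, cells low in other-lineage markers and cells of 15000 to 40000 UMIs. The summed level of the B cell marker list is not reported here. No doublets were removed from the cells reported. Scrublet's automatic threshold marked 11.5% of PBS and under 0.5% of each Decoy library, so the doublet alternative removed the top-scoring cells at an expected rate of 0.8% per 1000 cells. Promoter sequences and starts are RefSeq's (GRCm38.p6), and genes were matched to GENCODE vM21 for 99.6% of the 32285 genes counted. Total UMIs per sample, which set the counting precision, are given with the results.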

Additional observations from a re-analysis of the deposited data

How the results depend on the processing

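The class calls (7665 over both directions) stayed within 1.5 times under each alternative except the fit without the library block, which called 4881, and leaving out 1 library gave 5907 to 8148. The drug calls over all members, 0 as reported, became 312 with DESeq2, 13 with limma-voom, 139 without the low-count filter, 87 without cells bearing a Y-linked UMI, 119 without other-lineage droplets and 68 among cells of 15000 to 40000 UMIs, and leaving out 1 Decoy library gave 0 to 291. The interaction calls, 0 as reported, became 1 with DESeq2 size factors, 6 with DESeq2, 67 without the low-count filter, 3 without cells bearing a Y-linked UMI and 12 without other-lineage droplets, and leaving out 1 Decoy library gave 1 to 95. The difference in share, 2.55 points as reported, ranged from -0.99 (without Decoy 6) to 5.54 points (without Decoy 2) when 1 Decoy library was left out. The cause of these shifts was not tested. Among named genes of the class comparison, 1347 re-estimates kept their call, 7 lost it and 10 changed sign, all 10 in genes of granulocytes, monocytes or plasma cells. Without cells bearing a Y-linked UMI the log2 difference was 0.43 for Ctsg, 0.54 for Iglc1, 0.33 for Irf8 and 0.29 for Mpo. Among cells of 15000 to 40000 UMIs it was 0.46 for Elane, 0.40 for Iglc1, 0.61 for Irf8 and 0.17 for Mpo. Iglc1 was at 2.30 with a Cpa3 limit of 10 per 10000 and at 0.26 without other-lineage droplets. For named genes of the drug comparison, 655 re-estimates kept their side of the threshold and 16 passed it where the reported fit did not. No paired analysis was possible because the PBS library carries no number that a Decoy library shares. With 1 PBS library, drug differences smaller than the spread among 3 Decoy libraries cannot be seen, and genes of low level in Decoy 3 (3354915 UMIs in the class) rest on few molecules.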

Other observations

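Ribosomal and respiratory genes, for example Rpl38, Rps28, Ndufa1 and Cox7a1, were among the 40 genes called higher in Decoy in all 3 cell selections within Cpa3-high cells. With other-lineage droplets left out, 11 of 81 ribosomal protein genes and 10 of 86 respiratory chain and ATP synthase genes, grouped by symbol after their values were seen, were called higher and 0 lower, beside 0.755% of all genes higher, with medians of 0.09 and 0.15 log2 units. Over all members 0 of either group were called. Rpl38, a ribosomal protein, stood at 2801 CPM in PBS and at 5994, 5046 and 4420 CPM in Decoy 2, 3 and 6. Cox7a1, a subunit of cytochrome c oxidase, stood at 16.7 CPM in PBS and at 37.6, 43.8 and 33.4 CPM. PBS was lowest for both genes, as the rule for naming genes of largest difference required. In Cpa3-low cells Rpl38 stood at 2716 CPM in PBS and 4934 ± 763 CPM (SD, n = 3) in Decoy. Cox7a1 stood there at 15.9 CPM in PBS and 31.8 ± 3.85 CPM (SD, n = 3) in Decoy. The shift was thus not particular to Cpa3-high cells. With 1 PBS library, a drug difference and a trait of that library cannot be told apart.

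The 1 cell of Decoy 5 that met the rule held 3672 UMIs, with 8 of Cpa3, 13 of Ms4a2, 6 of Fcer1a and 16 of Hdc. Tph1, Il1rl1, Kit and Xist had 0 UMIs in it, and Ddx3y and Eif2s3y 1 each. A Xist UMI was present in 0.167% of the remaining Decoy 5 cells.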
